A study of Homo sapiens with 10 samples.

Results

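Double-strand breaks of DNA are mended by homologous recombination, which copies the sister chromatid, or by end joining, which ligates the ends directly. Damage signalling kinases and chromatin proteins mark the break and choose between the routes, and the Fanconi pathway opens crosslinks between the strands and hands the resulting break to recombination. RNA-DNA hybrids (R-loops) form where a transcript re-anneals to its template, often near gene starts, and several of these repair proteins, among them the BRCA and Fanconi proteins, are known to act at such structures. Here the genes of these proteins were followed as loci: the measure is how much of each gene lay under hybrid peaks, not how much protein or RNA it made.

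The list holds 44 genes of 19974 protein-coding genes and was chosen by function: 11 genes of homologous recombination, 8 of end resection and helicases, 10 of damage signalling and chromatin, 5 of end joining and 10 of the Fanconi pathway. DRIP-seq, the sequencing of nucleic acid pulled down with the hybrid-binding antibody S9.6, was done in U2OS, a human osteosarcoma line. The SCAN1 cells carry TDP1 H493R, the change that underlies the ataxia SCAN1, and exist as 2 lines, SCAN1#1 and SCAN1#2; WT U2OS cells are their control. TDP1 is the enzyme that frees DNA ends from trapped topoisomerase 1, and the study concerns breaks that form while genes are transcribed. Peak lists were used for SCAN1#1 in experiments 1 and 2, SCAN1#2 in experiment 2, and WT in experiments 1 and 2, so SCAN1 has 3 libraries from 2 lines and WT has 2. The replicate number of a library is its experiment, and the labels give another antibody lot for experiment 1 than for experiment 2, where lots were mixed. No other allele or agent is named in the labels, which do not say how the SCAN1 lines were made or whether replicates were separate cultures, so a p-value given here reflects the spread among these libraries alone. The 5 input samples were not analysed here.

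The lists held 63456 to 110745 peaks. To keep list length from setting coverage, the 63456 peaks of highest -log10 p were used in each library, and the lowest -log10 p then kept ran between 3.87 and 9.92. Coverage is the percent of a gene, with 1 kb added at both ends, that lies under these peaks (RefSeq, GRCh38.p14). Read depth is unknown, so no counting interval can be given. Of markers of the line's origin, 8 to 10 of 12 osteoblast and mesenchymal genes had a peak in a library, with COL1A2 and SPP1 at 0 in all 5. The 5 liver genes had none and the 6 blood genes 0 to 2, while 5 or 6 of 6 epithelial and 4 to 6 of 6 neuronal genes had one. Of all protein-coding genes 61.1% to 65.6% had a peak in a library. Mean coverage was 8.32% to 17.7% over the osteoblast and mesenchymal genes and 22.7% to 30.4% over the epithelial ones, so the markers do not settle the origin. A peak list shows no allele, so the genotype labels were not checked.

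A hybrid peak lay on most of these genes. With lists of equal length, 37, 39 and 36 of the 44 genes had a peak in SCAN1#1 replicate 1, SCAN1#1 replicate 2 and SCAN1#2 replicate 2, against 38 and 41 in WT replicates 1 and 2. In all 5 libraries a peak was found on 30 genes (68.2%, against 47.9% of all protein-coding genes), and on 1 gene, MRE11, in none (2.27%, against 22.8%). The repair genes are long, with a median of 74.4 kb against 24.2 kb for all genes, and long genes more often have a peak. Among genes of 100 kb and longer, 9 of 12 repair genes and 66.2% of all genes had a peak in all 5 libraries. Among those of 50 to 100 kb, the largest class of the list, these were 10 of 16 (62.5%) and 56.7%. They were 9 of 13 and 48.7% among genes of 10 to 50 kb, and 2 of 3 and 31.5% among shorter ones. Their median coverage was 1.83%, 2.91% and 1.80% in the SCAN1 libraries, against 3.05% and 2.74% in the WT libraries, and that of all protein-coding genes 0.751% to 1.24%.

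**Figure D1:**
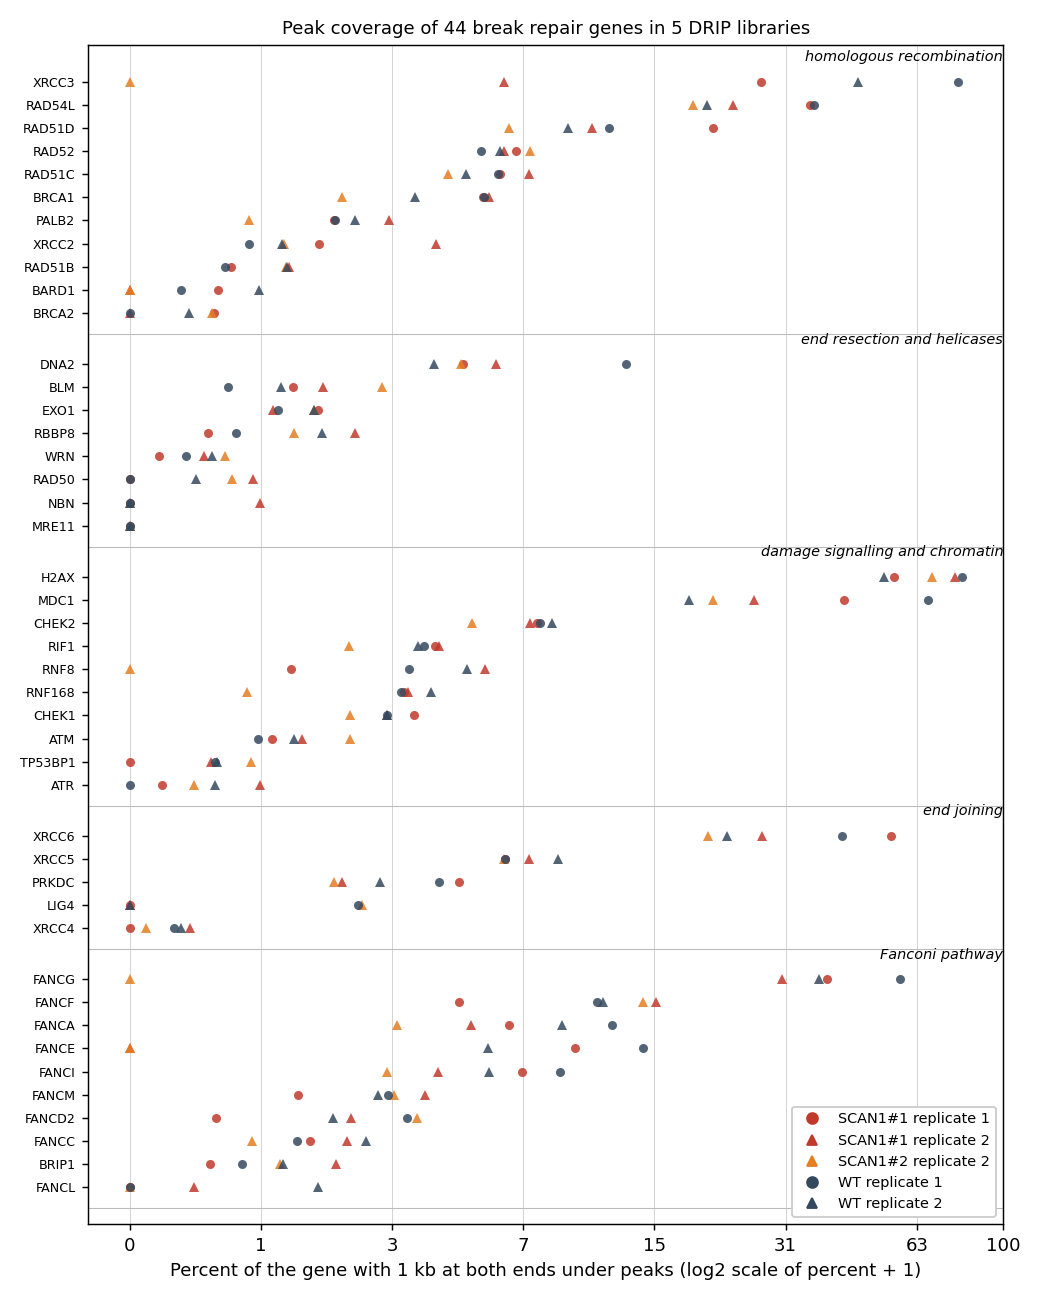
Percent of each of the 44 genes under peaks (x axis, log2 scale of percent + 1) by role and, within a role, by mean coverage. Red and orange points are SCAN1#1 and SCAN1#2, dark points WT, circles experiment 1 and triangles experiment 2; XRCC3 has the 2 WT points to the right of all SCAN1 points, while H2AX, MDC1 and XRCC6 have them mixed.

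Peaks of these genes crowded at the gene start. In the 500 bases downstream of the start, 29.2%, 30.8% and 21.4% of bases lay under peaks in the SCAN1 libraries, against 29.6% and 30.0% in the WT libraries, over the 38 genes found in the RefSeq promoter table. Over 15812 protein-coding genes the values were 19.4%, 19.9% and 20.6%, against 18.8% and 16.9%. SCAN1#2 was thus the lowest library at the starts of repair genes and the highest at the starts of all genes, which was not tested. Most peak bases still fell inside the genes: 79.3% to 82.2% of them lay more than 1 kb from either end in the 37 repair genes with a usable strand and length, against 71.7% to 75.4% in 14895 genes.

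**Figure D2:**
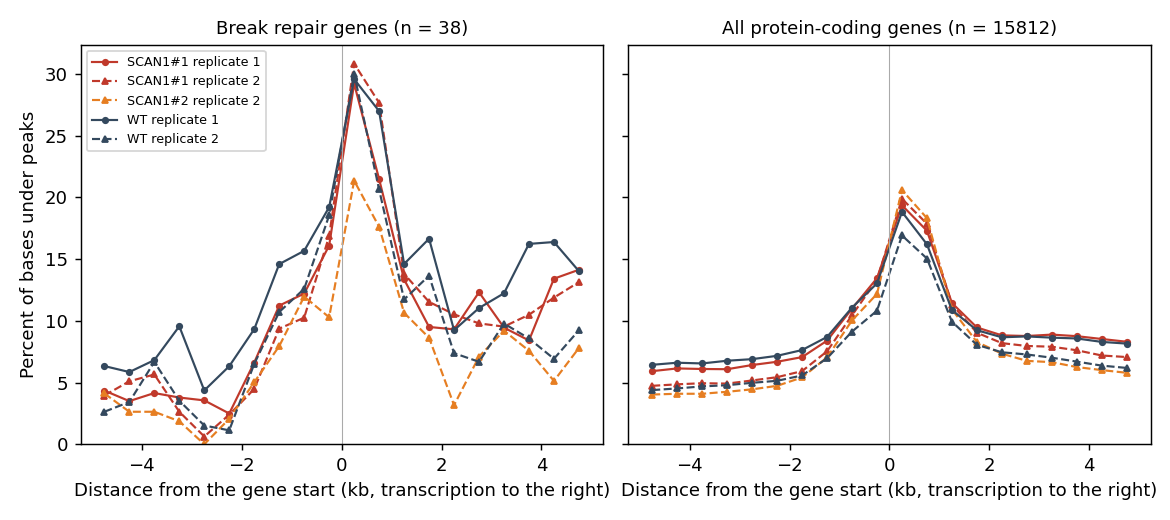
Percent of bases under peaks (y axis) in bins of 500 bases from 5 kb before to 5 kb after the gene start, for 38 repair genes (left) and 15812 protein-coding genes (right). Red and orange lines are SCAN1#1 and SCAN1#2, dark lines WT, solid lines experiment 1 and dashed lines experiment 2; all libraries peak in the first 500 bases, at 21.4% to 30.8% in repair genes.

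The promoter window of RefSeq (250 bases before to 50 after a start, 54 windows of 38 genes) touched a peak in 12, 13 and 9 genes in the SCAN1 libraries, against 14 and 14 in the WT libraries. It did so in all 5 libraries in 6 genes (15.8%, against 12.6% of 15812 genes): XRCC2, FANCC, CHEK1, RAD52, BRCA1 and CHEK2. In 17 genes (44.7%, against 67.8%) no library had a peak there. In 3 genes, XRCC3, RNF8 and FANCA, both WT libraries and no SCAN1 library had a peak in the window (7.89%, against 0.228% of all genes), and in 0 genes all 3 SCAN1 libraries and no WT library did (0.0%, against 0.443%). With the lists as deposited FANCA left the group of 3, which then held 5.26% of the repair genes against 0.272% of all. A window is a narrow target: in RNF8 the peaks of SCAN1#1 lay further into the gene, 219 and 910 bases of a region that reaches over the start.

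The 250 bases before the start are given below, 5′ to 3′ on the strand of the gene, for 7 genes (RefSeq, GRCh38.p14), with runs of 4 or more G in capitals. Such runs, on the strand that does not pair with the transcript, are known to favour hybrids in transcribed DNA. The bases shown lie before the listed start, so a transcript from that start does not cover them. XRCC3, RNF8 and FANCA are shown as the genes whose window had a peak in WT libraries only, CHEK1, CHEK2 and XRCC2 as genes with a peak there in all 5 libraries, and MRE11 as the gene without peaks.
XRCC3 (chr14:103715452-103715701, minus strand): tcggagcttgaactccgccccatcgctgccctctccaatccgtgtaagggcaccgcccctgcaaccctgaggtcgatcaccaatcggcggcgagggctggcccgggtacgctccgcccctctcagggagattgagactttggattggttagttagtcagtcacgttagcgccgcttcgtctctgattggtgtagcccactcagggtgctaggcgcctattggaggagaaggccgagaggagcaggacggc
RNF8 (chr6:37353733-37353982, plus strand): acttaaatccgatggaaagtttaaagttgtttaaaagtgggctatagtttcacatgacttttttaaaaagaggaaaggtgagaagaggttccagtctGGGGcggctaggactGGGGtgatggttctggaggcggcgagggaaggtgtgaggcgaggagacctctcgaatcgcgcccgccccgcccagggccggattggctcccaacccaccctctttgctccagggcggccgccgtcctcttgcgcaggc
FANCA (chr16:89816648-89816897, minus strand): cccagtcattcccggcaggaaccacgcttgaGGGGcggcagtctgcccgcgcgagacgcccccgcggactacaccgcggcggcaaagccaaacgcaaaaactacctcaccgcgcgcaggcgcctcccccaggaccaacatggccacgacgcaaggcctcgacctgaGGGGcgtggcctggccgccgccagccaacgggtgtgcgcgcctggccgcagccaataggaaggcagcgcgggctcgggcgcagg
CHEK1 (chr11:125625974-125626223, plus strand): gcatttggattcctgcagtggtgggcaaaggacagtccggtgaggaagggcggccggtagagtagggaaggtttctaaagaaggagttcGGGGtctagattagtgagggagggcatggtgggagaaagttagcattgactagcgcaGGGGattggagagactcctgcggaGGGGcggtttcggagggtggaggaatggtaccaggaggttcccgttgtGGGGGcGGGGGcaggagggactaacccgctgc
CHEK2 (chr22:28741821-28742070, minus strand): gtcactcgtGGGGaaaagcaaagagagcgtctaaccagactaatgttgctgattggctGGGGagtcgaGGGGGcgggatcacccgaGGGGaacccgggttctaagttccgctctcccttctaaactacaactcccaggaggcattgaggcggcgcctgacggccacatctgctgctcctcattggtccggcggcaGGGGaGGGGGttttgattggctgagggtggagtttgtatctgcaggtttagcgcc
XRCC2 (chr7:152676142-152676391, minus strand): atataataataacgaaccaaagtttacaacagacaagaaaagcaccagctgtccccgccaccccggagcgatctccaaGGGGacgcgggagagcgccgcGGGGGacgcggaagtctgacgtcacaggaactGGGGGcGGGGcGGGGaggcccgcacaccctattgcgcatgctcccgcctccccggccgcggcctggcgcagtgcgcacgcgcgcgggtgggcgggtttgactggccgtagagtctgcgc
MRE11 (chr11:94493845-94494094, minus strand): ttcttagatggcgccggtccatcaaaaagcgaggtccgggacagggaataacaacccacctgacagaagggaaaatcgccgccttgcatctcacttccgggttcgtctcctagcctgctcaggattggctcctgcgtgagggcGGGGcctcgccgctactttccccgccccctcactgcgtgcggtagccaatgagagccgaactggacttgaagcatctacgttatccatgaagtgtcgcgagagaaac
The runs numbered 0 in XRCC3, 2 in RNF8 and 2 in FANCA, against 5 in CHEK1, 6 in CHEK2, 5 in XRCC2 and 1 in MRE11. In the other genes with a window peak in all 5 libraries, that window had 7 (FANCC), 1 (BRCA1) and 0 (RAD52). Windows without a peak reached 6 in TP53BP1 and 14 in LIG4, so the genes printed do not stand for all windows. At least 1 run was found in 87.5% of the 8 windows with a peak in all 5 libraries and 70.4% of the 27 with none. A run was found in 77.8% of the 54 windows of repair genes and in 77.0% of 22132 windows of all genes, so the feature is common. The letters CCAAT, a motif of many promoters, were counted on both strands and found 5 times in XRCC3, 3 times in CHEK2, 2 times in MRE11 and 0 times in XRCC2; 46.3% of repair windows and 32.7% of all windows held at least 1. These matches are descriptions of letters in the windows. Over the whole 300-base window, the excess of G over C (as a percent of G plus C) had a median of 19.2% in the 8 repair windows with a peak in all 5 libraries and 0% in the 27 with none. Over all genes those medians were 2.20% and 1.91%. The 8 windows include 3 overlapping ones of CHEK1, and no test was made.

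Whether coverage differs by genotype was asked for genes whose coverage averaged 2% or more, a filter that 25 of the 44 passed (56.8%, against 42.4% of all genes). No repair gene passed an adjusted p of 0.05 in either direction (limma with Benjamini-Hochberg adjustment, 0 of 25; 0.0% of 8472 genes tested were called higher and 0.0% lower). Without adjustment, p was under 0.05 for 0 genes in the higher direction and for 2, XRCC3 and FANCA, in the lower one, against 1.94% and 1.55% of all tested genes. The difference, SCAN1 minus WT, was below 0 in 19 of the 25 (76%, against 48.5% of all tested genes), and its median was -0.53 percentage points, against 0.08. Without the filter the SCAN1 mean was below the WT mean in 26 of the 43 genes with a peak (60.5%, against 46.2% of all such genes). Without WT replicate 1 the difference was below 0 in 12 of 26 tested repair genes (46.2%, against 37.9% of all genes in that fit), and its median was 0.08 against 0.93. In the same fit 0 repair genes had an unadjusted p under 0.05, against 1.69% of all genes higher and 1.44% lower. All 3 SCAN1 libraries lay below both WT libraries in 3 genes, XRCC3, CHEK2 and FANCA (12%, against 6.86%), and above both in 1, RAD52 (4%, against 9.48%). Set against WT of the same experiment, 7 genes were lower in all 3 comparisons (28%, against 15.8%): XRCC3, CHEK2, XRCC5, FANCA, FANCE, FANCG and FANCI. RAD52 alone was higher in all 3 (4%, against 19.4%). These counts depend on the filter: among the 43 genes with a peak in any library the same 7 were lower (16.3%, against 15.2%), and XRCC2, BLM and ATM joined RAD52 as higher (9.3%, against 15.2%). Both comparisons of experiment 2 share 1 WT library. A limma fit that pairs the libraries by experiment (a replicate block) called 0 too, and left 3 repair genes with an unadjusted p under 0.05, all lower: XRCC3, FANCE and FANCA (12%, against 2.6% of all tested genes lower, and 0 against 3.52% higher). In that fit 17 of the 25 were below 0 (68%, against 45.0%). XRCC3 stood at -46.5 points there (SE 5.61, limma, adjusted p = 0.742), FANCE at -5.15 (SE 1.14, limma, adjusted p = 0.742) and MDC1 at -7.37 (SE 8.95). The genotype differences given below for single genes are from the fit without the block, unless stated.

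**Figure D3:**
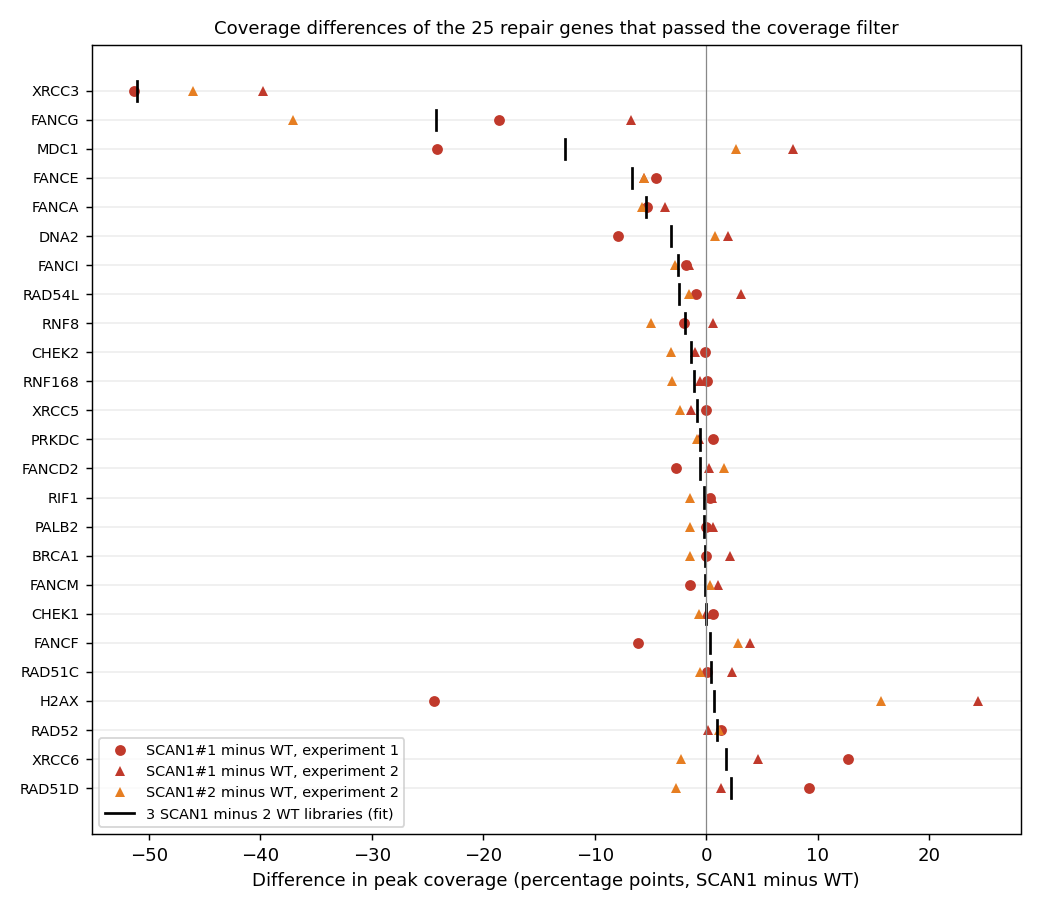
Difference in coverage (x axis, percentage points, SCAN1 minus WT) of the 25 tested repair genes, ordered by the difference over all libraries (black bars). Red circles and triangles are SCAN1#1 in experiments 1 and 2, orange triangles SCAN1#2 in experiment 2; XRCC3 stands at -51.3, -39.8 and -46.0, while MDC1, H2AX and XRCC6 have points on both sides of 0.

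Among the genes of homologous recombination, XRCC3 had the largest difference by genotype. XRCC3, whose product acts in strand exchange and in the resolution of its intermediates, lies on chromosome 14 from 103697617 to 103715451. Peaks lay over 27.1% and 6.23% of it in SCAN1#1 replicates 1 and 2 and over 0% in SCAN1#2, against 78.4% and 46.0% in WT replicates 1 and 2. All SCAN1 libraries were below both WT libraries, and the difference was -51.12 points (SE 13.9; limma, unadjusted p = 0.013, adjusted p = 1). As deposited, the lists covered it over 27.1%, 24.2% and 6.41% in the SCAN1 libraries, against 81.5% and 56.0% in the WT libraries. The largest of its 4 merged peak regions, 103699438 to 103707744, held 3566, 0 and 0 peak bases in the SCAN1 libraries, against 7635 and 3546 in the WT libraries. At the start, the region 103712437 to 103715628 held 1145, 1235 and 0, against 3192 and 2568. The end of XRCC3 is overlapped by KLC1, a kinesin light chain gene, so peaks there belong to both.

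The genes around XRCC3 had less coverage in SCAN1 libraries as well. Of 56 other genes with a midpoint within 2 Mb, 37 had a peak in any library, and without a filter the SCAN1 mean was below the WT mean in 35 of these and above it in 2 (94.6% below, against 46.2% of all genes with a peak). INF2, which encodes a formin, had 9.10%, 3.26% and 0% under peaks in SCAN1 libraries, against 24.3% and 14.1% in the WT libraries. SIVA1, an apoptosis regulator gene, was covered over 7.24%, 0% and 0%, against 13.0% and 13.9%. KLC1 was covered over 1.32%, 0% and 0%, against 9.45% and 4.41%. KLC1 and, with the added 1 kb, ZFYVE21 overlap XRCC3, so their values come in part from the same peak regions. Both are among the 35. The part of this surrounding stretch in the difference of XRCC3 was not tested. Copy number there was not tested either, since the input samples were not analysed here. Around the other genes of the list with at least 10 such neighbours, the share below ran from 19.4% (RAD51D) to 81.8% (NBN), with 79.5% around RNF8.

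**Figure D4:**
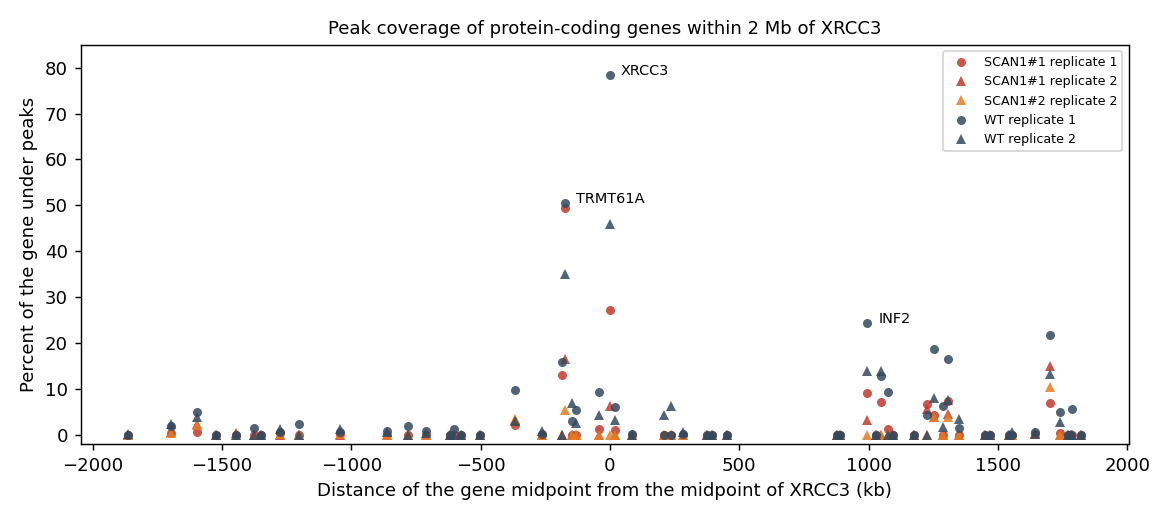
Percent of each protein-coding gene under peaks (y axis) against the distance of its midpoint from that of XRCC3 (x axis, kb), within 2 Mb on chromosome 14. Red and orange points are SCAN1#1 and SCAN1#2 and dark points WT; XRCC3 reaches 78.4% in WT, and the dark points of INF2 (24.3% and 14.1%) also lie above its SCAN1 points.

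RAD54L, which encodes a DNA translocase of strand exchange, was the most covered of the group in each SCAN1 library and second to XRCC3 in each WT library. It was covered over 35.3%, 23.3% and 18.6% in SCAN1 libraries, against 36.3% and 20.1% in WT libraries, so the groups overlapped (-2.46 points, SE 8.87). Its long last region is shared with LRRC41 and held 4082 to 5526 bases of the gene in SCAN1 and 3168 and 5873 in WT libraries. RAD51D, which encodes another recombination mediator, had 20.8%, 10.5% and 6.41%, against 11.6% and 9.16%, with overlapping groups (2.21 points, SE 4.86); it lies wholly within the readthrough gene RAD51L3-RFFL. RAD52, an annealing factor, had 6.71%, 6.24% and 7.27%, against 5.39% and 6.08%. This gap of 1.01 points (SE 1.40) was small, and it was not past the threshold (limma, adjusted p = 1). Its strongest region, at an inner start, was present in all 5 libraries with a fold enrichment over the caller's background of 14.8 at most, as the authors' lists give it.

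The genes tied to breast cancer differed in coverage for their length. The mean over the 5 libraries exceeded that of 96.2% of genes of 100 kb and longer for BRCA1, but of 21.98% and 25.4% of genes of 50 to 100 kb for BRCA2 and BARD1. BRCA1 was covered over 5.47%, 5.68% and 2.07% in SCAN1 libraries, against 5.50% and 3.51% in WT libraries. Its inner start, at 43125364, is shared with NBR2 and carried a peak in every library, of 1020 to 1336 bases in SCAN1 and 1115 and 1154 bases in WT. The promoter window of its outer start, at 43170327, touched no peak in any library. Coverage of BRCA1 was taken up to the outer start, so it includes the stretch between these starts. PALB2, a partner of BRCA1, had 1.94%, 2.93% and 0.877%, against 1.97% and 2.29%, and RAD51C had 6.08%, 7.26% and 4.39%, against 6.0% and 4.92%. BRCA2, which encodes a recombination mediator, had 0.562%, 0% and 0.547%, against 0% and 0.365%, and BARD1, the partner of BRCA1 in its ubiquitin ligase, 0.596%, 0% and 0%, against 0.313% and 0.983%. RAD51B, the longest of the list at 863.318 kb, had 14, 22 and 25 peaks in SCAN1 and 16 and 19 in WT libraries, the most of the list in the 3 libraries of experiment 2 but not in those of experiment 1, and 0.652% to 1.31% of it was covered. XRCC2, which encodes the partner of RAD51D, had 1 peak in each library, at its start, covering 1.26% to 4.03% in SCAN1 and 0.878% and 1.23% in WT libraries.

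End resection and helicase genes had the lowest median coverage of the 5 roles in every library, and 1 of 8, DNA2, was tested. DNA2, a nuclease-helicase of long-range resection, was covered over 4.83%, 5.93% and 4.77% in SCAN1 libraries, against 12.7% and 4.0% in WT libraries. The WT libraries lay on either side of all SCAN1 libraries, and the difference was -3.20 points (SE 2.82). The helicase gene BLM had 1.37%, 1.78% and 2.80%, against 0.682% and 1.23%, and was below the filter. The exonuclease gene EXO1 had 1.70%, 1.13% and 1.65%, against 1.19% and 1.65%, and RBBP8, whose product CtIP starts resection, 0.516%, 2.30% and 1.39%, against 0.758% and 1.77%. WRN, a RecQ helicase gene, reached 0.653% at most.

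The 3 genes of the MRN complex, which binds and trims the ends, had few peaks. MRE11, the nuclease, had none in any library of equal length; as deposited, SCAN1#1 replicate 2 had a peak over 0.348% of it. RAD50 had 0%, 0.924% and 0.721% in SCAN1 libraries, against 0% and 0.417% in WT libraries. NBN had a peak in SCAN1#1 replicate 2 alone, over 0.996%, but as deposited it had 0%, 1.56% and 1.10% in SCAN1 libraries, against 0.531% and 0.585% in WT libraries. Each of them spans 51.337 to 96.843 kb, a length class (50 to 100 kb) in which 69.0% to 79.9% of all genes had a peak in a library.

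In damage signalling, H2AX was the most covered gene of the list in every library. MDC1 had the next highest mean over the 5 libraries (34.9%), although other genes stood above it in 4 of them. H2AX, the histone variant phosphorylated around breaks, is a gene of 1.592 kb and was covered over 55.8%, 77.1% and 68.4% in SCAN1 libraries, against 80.2% and 52.7% in WT libraries. The WT values enclosed the SCAN1 values (0.66 points, SE 11.7). A single merged region of 4618 bases ran over H2AX and DPAGT1, so its coverage is not of H2AX alone. MDC1, the reader of that histone mark, had 42.7%, 26.0% and 20.8%, against 66.8% and 18.2%. Here too the WT libraries enclosed the SCAN1 libraries, and the difference of -12.68 points (SE 16.8) turned to 11.7 points without WT replicate 1. MDC1 is overlapped by MDC1-AS1, and peaks carry no strand.

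CHEK2 and CHEK1, the checkpoint kinase genes, each had a peak at the start in every library. CHEK2 was covered over 7.60%, 7.31% and 5.12% in SCAN1 libraries, against 7.74% and 8.31% in WT libraries. The groups did not overlap, but the difference of -1.35 points (SE 1.72) was not past the threshold (limma, adjusted p = 1). Its start peak, shared with HSCB, was the strongest of the list in the 3 libraries of experiment 2: the authors' fold enrichment was 15.7, 40.6 and 47.7 in SCAN1 libraries, against 14.9 and 30.0 in WT libraries. In experiment 1 the strongest peak of H2AX stood above it, at 18.8 in SCAN1#1 and 25.4 in WT. CHEK1 had a single peak in every library, over 3.49%, 2.89% and 2.21% of the gene, against 2.90% and 2.90%. The ubiquitin ligase gene RNF8 had 1.34%, 5.54% and 0%, against 3.37% and 4.95%, so SCAN1#1 replicate 2 was above both WT libraries and SCAN1#2 had no peak (-1.87 points, SE 1.83). RNF168, the ligase that follows RNF8, had 3.27%, 3.36% and 0.857%, against 3.19% and 3.91%. RIF1, a guard against resection, had 4.03%, 4.12% and 2.19%, against 3.73% and 3.60%. In CHEK2, RNF8, RNF168 and RIF1, SCAN1#2 was the lowest of the 5 libraries.

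The large kinase and scaffold genes of signalling were below the filter. ATM was covered over 1.12%, 1.48% and 2.20% in SCAN1 libraries, against 0.973% and 1.38% in WT libraries. ATR had 0.186%, 0.995% and 0.405%, against 0% and 0.569%, and TP53BP1, the scaffold that favours end joining, 0%, 0.537% and 0.902%, against 0.566% and 0.587%.

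Of the end joining genes, XRCC6 and XRCC5 encode the subunits of Ku, the ring that caps the ends. XRCC6 was covered over 54.8%, 27.2% and 20.3% in SCAN1 libraries, against 42.0% and 22.5% in WT libraries. The libraries ranked by experiment and not by genotype, with both of experiment 1 on top (1.80 points by genotype, SE 13.7). A long region at its start, shared with DESI1, held 5730 to 8488 bases in SCAN1 and 7041 and 7751 in WT libraries. XRCC5 had 6.25%, 7.27% and 6.23%, against 6.28% and 8.62%, most of it in regions present in all 5 libraries along the gene. PRKDC, which encodes the kinase that Ku recruits, had 4.71%, 2.07% and 1.94%, against 4.12% and 2.76%. LIG4, the ligase, had a peak in SCAN1#2 (2.42%) and in WT replicate 1 (2.34%) alone, and its scaffold XRCC4 had 0%, 0.372% and 0.0900%, against 0.267% and 0.310%.

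Of the Fanconi pathway, FANCA, FANCE, FANCG and FANCI were lower in all 3 comparisons within experiments, and none passed the adjusted threshold. FANCG, a core complex gene, was covered over 38.9%, 30.4% and 0% in SCAN1 libraries, against 57.5% and 37.1% in WT libraries. SCAN1#1 replicate 1 lay between the WT libraries and SCAN1#2 had no peak (-24.21 points, SE 14.6; limma, adjusted p = 1). As deposited, SCAN1#2 had peaks over 8.70%. The larger of its regions is shared with VCP and held 1699, 1856 and 0 bases, against 2330 and 3005; the one at its own start held 1452, 604 and 0, against 2329 and 0.

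FANCA, also of the core complex, is a gene of 79.099 kb on chromosome 16 and was covered over 6.42%, 5.08% and 3.10% in SCAN1 libraries, against 11.8% and 8.83% in WT libraries. The groups did not overlap, at -5.43 points (SE 1.94; limma, unadjusted p = 0.035, adjusted p = 1). Within 1 kb of its ends the gap was wider, with 12.6%, 8.40% and 0%, against 49.75% and 29.5%, a difference of -32.65 points (SE 7.77; limma, unadjusted p = 0.0089, adjusted p = 0.946). Other settings gave a smaller difference for the gene. It was -4.22 points with the deposited lists (SE 2.46, limma, unadjusted p = 0.134) and -4.14 with -log10 q of at least 5 (SE 2.15, limma, unadjusted p = 0.101). Without the added 1 kb it was -4.26 (SE 1.65, limma, unadjusted p = 0.053). With 1 library left out it ran from -6.90 to -3.96. The region at its start, 89816755 to 89817442, held 0 bases in each SCAN1 library, against 657 and 665 in the WT libraries, in the lists of equal length. With the lists as deposited, FANCA was no longer a gene whose promoter window had a peak in WT libraries only. Its end is overlapped by ZNF276, and of 42 neighbours within 2 Mb that had a peak, the SCAN1 mean was below the WT mean in 26 (61.9%, against 46.2%).

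FANCE, a bridge within the core complex, was covered over 9.54%, 0% and 0% in SCAN1 libraries, against 14.1% and 5.62% in WT libraries (-6.67 points, SE 4.06). Most of this lay in 1 region that reaches in from the ribosomal protein gene RPL10A and held 1322, 0 and 0 bases of the extended gene, against 1323 and 548. FANCI, which with FANCD2 forms the clamp placed on crosslinks, had 6.94%, 4.10% and 2.90%, against 8.74% and 5.66% (-2.55 points, SE 1.89). FANCD2 itself had 0.581%, 2.22% and 3.56%, against 3.34% and 1.94%, with overlapping groups. FANCF, a short gene of 3.291 kb, had 1 peak in each library over 4.71%, 15.1% and 14.1%, against 10.8% and 11.2%. FANCM, a translocase gene, had 1.44%, 3.77% and 3.03%, against 2.92% and 2.72%. The helicase gene BRIP1 had 0.531%, 1.98% and 1.21%, against 0.810% and 1.24%, and FANCC 1.59%, 2.16% and 0.912%, against 1.42% and 2.48%. FANCL, the ubiquitin ligase of the pathway, had a peak in SCAN1#1 replicate 2 (0.405%) and WT replicate 2 (1.71%) alone.

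The experiment was compared next, in a fit that keeps genotype, because antibody lots differ between experiments. No repair gene passed (limma, 0 of 25 in either direction, against 0.0% higher and 0.0% lower of 8472), and the smallest adjusted p, of FANCE, was 0.0947. At an unadjusted p under 0.05, 0 were higher and 7 lower in experiment 2 (28%, against 3.71% higher and 17.8% lower of all tested genes): XRCC3, RAD54L, MDC1, XRCC6, PRKDC, FANCE and FANCI. The difference, experiment 2 minus experiment 1, had a median of -1.76 points, against -1.14 over all tested genes, and was below 0 in 18 of the 25 (72%, against 61.0%). It was lower in both SCAN1#1 and WT in 11 genes (44%, against 40.5%) and higher in both in 5 (20%, against 24.5%): PALB2, RNF8, RNF168, XRCC5 and FANCF. The shares lower or higher in both lines stood near those of all genes. Those below 0, and those lower at an unadjusted p under 0.05, were larger than over all genes (72% and 28%, against 61.0% and 17.8%). The direction of the median also depended on list length: with the lists as deposited it was 0.34, against 0.63 over all genes in that fit.

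MDC1 differed most between experiments, by -31.86 points (SE 8.95). In SCAN1#1 it had 26.0% in experiment 2 and 42.7% in experiment 1, and in WT 18.2% in experiment 2 and 66.8% in experiment 1. XRCC3 differed by -27.62 points (SE 5.61) and XRCC6 by -26.08 (SE 6.17), each lower in experiment 2 in both lines. RAD54L (-15.14, SE 4.49) and FANCG (-22.29, SE 10.9) ran the same way. H2AX went opposite ways, at 21.3 points in SCAN1#1 and -27.5 in WT. For MDC1 and RAD54L the difference between experiments was larger in size than that between genotypes, and for XRCC3 it was smaller.

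**Figure D5:**
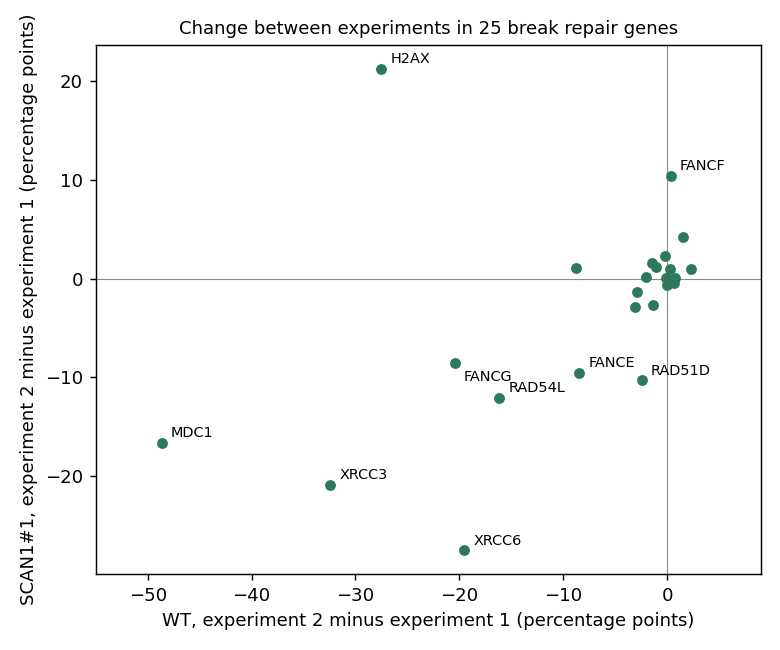
Difference between experiments (percentage points, experiment 2 minus experiment 1) in SCAN1#1 (y axis) and in WT (x axis), 1 point per tested repair gene (n = 25), with the widest movers named. MDC1, XRCC3, XRCC6, FANCG and RAD54L lie in the lower left, below 0 in both lines, and H2AX in the upper left (21.3 and -27.5).

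Other genes of break repair outside the list of 44, such as further recombination mediators, Fanconi-associated factors and shieldin, were read in the same way. Of 76 such genes 46 were tested and 0 passed (limma); at an unadjusted p under 0.05, 0 were higher and 1, the fork protection gene TIMELESS, was lower. Of the 46, 27 had a difference below 0 (58.7%, against 48.5% of all). TONSL had the most negative difference, with 94.0%, 79.0% and 42.7% in SCAN1 libraries, against 91.7% and 82.2% in WT libraries. CENPS, a partner of FANCM, had 10.1%, 8.52% and 7.90%, against 33.1% and 12.9%, with all SCAN1 libraries below both WT libraries. FAAP100, of the Fanconi core complex, had 42.9%, 13.9% and 6.17%, against 48.8% and 18.1%. In the other direction, the polymerase gene POLM had 73.5%, 39.4% and 33.8%, against 55.1% and 21.5%, the nuclease gene EME1 55.8%, 13.2% and 11.0%, against 28.9% and 12.4%, and FAAP20 3.67%, 1.18% and 15.3%, against 6.33% and 0%.

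At the level of single regions the list held 412 merged peak regions. Of these, 50 were present in all 5 libraries (12.1%, against 15.0% of 85869 regions counted in the same way over all protein-coding genes), spread over 25 genes, and 185 in 1 library. A region in all 3 SCAN1 libraries and no WT library was found 4 times, in BRCA1 (2 regions), RAD51B and RAD52 (0.971%, against 1.02%), and one in both WT libraries and no SCAN1 library 8 times, among them 2 in FANCA (1.94%, against 1.56%). Both shares stood near those of all genes. The first count asks for 3 libraries and the second for 2, so they are not compared. Of the 412 regions 74 overlap another gene.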

How the data were processed

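Peak lists of 5 DRIP libraries were used, 3 of SCAN1 and 2 of WT cells. The submitters' processing notes name the build hg38 and, without roles, MACS3 3.0.0a6, deepTools 3.5.1, BWA 0.7.17-r1188, SAMtools 1.9 and FastQC 0.11.5; these sources do not state the control or options of peak calling. Per the narrowPeak layout of the deposited files, each peak has a fold enrichment (a ratio over the caller's background), a -log10 p and a -log10 q, and the authors' score is 10 times the -log10 q in 99.97% to 99.995% of peaks of a list. The lowest -log10 q of a list was 2.00 to 2.01, so a gene without a peak may still hold hybrids.

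From these, coverage per gene was computed from the 63456 strongest peaks of each library, and limma 3.58.1 (R 4.3.3) compared genes averaging 2 percent or more, pooling both SCAN1 lines, by lmFit and a trended eBayes. P-values were adjusted over all 8472 genes by Benjamini-Hochberg, with 0.05 as the threshold. The fit for experiment keeps genotype. On simulated differences of 20, 40 and 60 points in 200 of 8472 genes, the genotype fit recovered 44.5%, 64.5% and 81%, and the experiment fit 17%, 30% and 41%. A gene covered over less than 20% cannot fall by 20 points, so these rates do not describe losses in such genes. Deviations from the group means of same-numbered libraries correlated by 0.612, 0.325 and 0.470, and by the labels a number stands for an experiment, which pairs the libraries. Promoter windows are those of RefSeq's table, which holds 38 of the 44 genes (not NBN, PRKDC, FANCI, DNA2, XRCC5 and WRN). Other settings tried were the deposited list length, -log10 q of at least 5, a log2 scale, gene ends, gene bodies, other filters, single libraries left out, SCAN1#1 alone and the experiment as a block. Values in every library are given for the 10 genes with the largest genotype difference, the 6 most covered, the 6 that differed most between experiments and 3 per role, and outside the list for the 3 with the largest difference in each direction; further genes were added to account for the whole list, and the surroundings of XRCC3 were named after their values were seen. Some items are not reported here. The members and lists were chosen with earlier results of these data known. Python 3.11.15, numpy 2.4.6, pandas 2.3.3 and matplotlib 3.10.9 were used.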

Additional observations from a re-analysis of the deposited data

Results flagged for a closer look

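In 17 of the 25 tested genes the coverage of SCAN1 libraries stood on opposite sides of WT of the same experiment, either between experiments (13 genes) or between lines (8 genes). None of these differences was tested, since each contrast has 1 library on each side. The other tested repair genes ran the same way in all 3 comparisons, 4% higher and 28% lower. Over all tested genes those shares were 19.4% and 15.8%, so most genes did not run 1 way there either. H2AX had the widest gap: SCAN1#1 minus WT was 24.4 points in experiment 2 and -24.4 in experiment 1 (48.8 apart). For MDC1 it was 7.83 in experiment 2 and -24.2 in experiment 1 (32.0 apart), for FANCF 3.97 and -6.10 (10.1 apart), and for DNA2 1.93 and -7.92 (9.84 apart). RAD54L was 4.08 points further up in experiment 2 (3.14 and -0.94), FANCD2 3.04, RNF8 2.61, FANCM 2.54, BRCA1 2.19 and PALB2 0.67. In the other direction, experiment 2 less experiment 1 was -1.28 for PRKDC, -0.64 for RNF168 and -0.59 for CHEK1. Within experiment 2, SCAN1#2 was below and SCAN1#1 above the same WT library in all 8 genes. XRCC6 stood at -2.26 in SCAN1#2 and 4.69 in SCAN1#1 (a difference of -6.95), and RNF8 at -4.95 and 0.58 (a difference of -5.54). The difference was -4.66 for RAD54L, -4.10 for RAD51D, -3.61 for BRCA1, -2.87 for RAD51C, -2.05 for PALB2 and -1.93 for RIF1.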

How the results depend on the processing

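No repair gene passed an adjusted p of 0.05 under any of the 14 alternatives for genotype or the 12 for experiment that were run with limma. Of the 14, SCAN1#1 alone and the fit without SCAN1#2 use the same libraries and are the same fit, counted under both names. On the log2(percent + 1) scale limma called 4 genes of 8472 for genotype and 2 for experiment, none of them in the list. XRCC3, FANCG, FANCE, FANCA and FANCI kept a difference below 0 by genotype under all 14 alternatives, and XRCC3 ran from -67.3 to -34.9 with 1 library left out. FANCI shrank to -0.36 (SE 2.08) with the deposited lists, -0.73 (SE 9.61) at gene ends only and -1.02 without WT replicate 1. The sign of RAD54L was turned at gene ends only (0.60), with SCAN1#1 alone (1.10) and with the experiment as a replicate block (0.060), and by experiment at gene ends only (3.34). With 1 library left out, differences by genotype ran from -37.0 to 11.7 for MDC1, from -7.57 to 1.18 for DNA2 and from -10.54 to 5.61 for RAD54L, and each upper value came without WT replicate 1. RAD51D ran from -1.90 to 5.29, and was below 0 without SCAN1#1 replicate 1. FANCG ran from -34.4 to -12.7, FANCE from -10.9 to -2.44 and RNF8 from -3.49 to -0.72. The number of tested genes below 0 by genotype was 10 of 16 with a mean of at least 5% (50.5% of all genes in that fit), 15 of 31 at gene ends only (42.6%), 26 of 43 without a filter (46.3%), and 12 to 21 with 1 library left out (37.9% to 53.8%), lowest without WT replicate 1. Their median ran from -1.43 to 0.08 over the same fits and was 0.41 at gene ends only, where that of all genes was 1.26. With -log10 q of at least 5, 4 genes were lower in all 3 comparisons within experiments, a count without a share over all genes. In that setting 10 of 25 were lower in experiment 2 (38.4% of all genes in that fit). The median difference between experiments was 0.34 with the deposited lists, 0.74 with -log10 q of at least 5 and 0.020 without a filter. The medians of all genes in these fits were 0.63, 1.02 and 0.14. The replicate block changed no call. Depth is unknown, so a gene listed at 0% has no peak above the caller's threshold and no floor can be given; the causes of these changes were not tested.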
